A study of Homo sapiens with 18 samples.

Results

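The 10 genes described here, ZNF723, ZNF99, ZNF91, ZNF208, ZNF257, ZNF676, ZNF728, ZNF729, ZNF730 and ZNF675, encode zinc finger proteins and lie together in band p12 of chromosome 19. They were taken by name from the 58870 genes of the count table. The set was chosen with the changes in A375 cells known, where ZNF723 and ZNF99 were lower with MAFG, so that the A375 values of the 10 genes with MAFG against GFP are given as a description without a p-value. Their RNA was measured by RNA-seq in the human melanoma cell lines WM164, SKMel28 (SKMEL28 in the labels) and A375. Cells of each line overexpressed either MAFG, a small MAF transcription factor, or GFP as a control, with 3 libraries for each of the 6 conditions and 18 libraries in all. All cells, controls included, had been transduced with a lentivirus in which the EF1α promoter drives the insert and had been selected with blasticidin, and the MAFG insert carries a Myc-DDK tag. Nothing in the labels says that the 3 libraries of a condition came from separate cultures, so that p-values measure the spread between libraries, which may be technical.

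Most proteins of this family join a KRAB domain to a row of C2H2 zinc fingers. The fingers bind DNA, often inside retroelements, and the KRAB domain recruits TRIM28, which brings the histone methyltransferase SETDB1, heterochromatin protein 1 and histone deacetylases to the site. The genes multiplied by tandem duplication in primates and sit side by side in clusters that are themselves covered by heterochromatin. ZNF91 is known as a repressor of SVA and L1 retroelements. ZNF675, also called TIZ, is known to bind TRAF6 and to dampen its signalling. For ZNF723, ZNF99, ZNF208, ZNF257, ZNF676, ZNF728, ZNF729 and ZNF730 no role is given here.

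All 10 gene identifiers were found in GENCODE release 44 on GRCh38. In order along the chromosome, the genes are ZNF208 (chr19:21932958-22010949, minus strand), ZNF257 (chr19:22052430-22091480, plus), ZNF676 (chr19:22179089-22215801, minus), ZNF729 (chr19:22286441-22317176, plus) and ZNF99 (chr19:22752183-22784151, minus). They are followed by ZNF723 (chr19:22832291-22858667, plus), ZNF728 (chr19:22974883-23003176, minus), ZNF730 (chr19:23075210-23147221, plus), ZNF91 (chr19:23304991-23395471, minus) and ZNF675 (chr19:23525631-23687220, minus). The whole region spans 1.75 Mb. Each gene overlaps between 1 and 4 other annotated genes, most of them processed pseudogenes of the opposite strand, so that reads of both cannot be told apart if reads were counted without strand. The genes also resemble each other, and a read that matches several places was not counted. Of the 100-base windows inside the exons of ZNF723, 0 of 1479 occurred a second time in the genome. The share of such repeated windows was 1.98% for ZNF99, 0.869% for ZNF729 and 4.11% for ZNF91, the highest of the 10 genes. By contrast, it was 31.0% for ZNF98 and 22.4% for ZNF492, 2 neighbours that appear further on. These shares count exact matches only, so that reads with a mismatch may still be shared.

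To show how alike the genes are at their starts, the bases upstream of the start are given for the 4 genes on which the results turn most: ZNF723 for its fall in A375 cells, ZNF730 and ZNF208 for their rise in SKMel28 cells and ZNF91 for its rise in WM164 cells. RefSeq promoters (GRCh38.p14) were matched for 6 of the 10 genes, ZNF208, ZNF257, ZNF723, ZNF730, ZNF91 and ZNF675. The sequence of ZNF723 is chr19:22832041-22832290 (plus strand), that of ZNF730 is chr19:23116775-23117024 (plus), that of ZNF208 is chr19:22010950-22011193 (minus) and that of ZNF91 is chr19:23395472-23395721 (minus). The RefSeq start of ZNF730 lies inside the longer gene of GENCODE, and the other sequences end right before the gene. Capitals mark the longest run that all 6 promoters share within 250 bases upstream of the RefSeq start. In ZNF257, the run lies past the gene start of GENCODE.
ZNF723: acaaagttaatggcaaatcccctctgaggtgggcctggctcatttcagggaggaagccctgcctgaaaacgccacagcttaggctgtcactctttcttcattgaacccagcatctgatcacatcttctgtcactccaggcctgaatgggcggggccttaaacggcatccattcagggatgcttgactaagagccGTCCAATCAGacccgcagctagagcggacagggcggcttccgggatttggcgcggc
ZNF730: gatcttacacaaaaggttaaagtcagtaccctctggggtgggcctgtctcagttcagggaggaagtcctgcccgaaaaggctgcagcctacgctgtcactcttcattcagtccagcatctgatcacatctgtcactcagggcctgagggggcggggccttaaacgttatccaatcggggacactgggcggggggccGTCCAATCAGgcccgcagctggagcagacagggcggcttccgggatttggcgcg
ZNF208: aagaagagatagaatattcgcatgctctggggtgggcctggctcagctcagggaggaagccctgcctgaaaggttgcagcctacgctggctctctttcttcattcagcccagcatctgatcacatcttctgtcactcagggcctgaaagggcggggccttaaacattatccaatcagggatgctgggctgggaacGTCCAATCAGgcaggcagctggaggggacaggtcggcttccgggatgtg
ZNF91: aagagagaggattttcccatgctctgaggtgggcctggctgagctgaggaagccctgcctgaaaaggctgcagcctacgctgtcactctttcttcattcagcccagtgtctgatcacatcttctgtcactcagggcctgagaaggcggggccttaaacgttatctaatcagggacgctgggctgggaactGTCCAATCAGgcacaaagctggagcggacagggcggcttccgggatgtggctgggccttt

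The shared run has 10 bases and holds the letters CCAAT, the core of the CCAAT box of many promoters. It was also found in the promoters of 18 of 23 other zinc finger genes of 19p12 with a RefSeq promoter, against 0.37% of all 35116 promoters, counting the 250 bases upstream of the start on both strands. The run was picked from these sequences, so its share is a description. Over the aligned bases of the 250 (202 to 247 per pair), identity between pairs of the 6 promoters ranged from 78.1% (ZNF723 and ZNF675) to 90.1% (ZNF208 and ZNF91). The E-box letters bound by MITF (CACGTG, in 6.34% of all promoters, and TCATGTG, in 2.52%) were in 0 of the 6 promoters. The same was true of TGCTGA (14.0% of all promoters) and TGACNNNGC (10.9%), which are parts of elements bound by MAF proteins, and of the AP-1 letters TGANTCA (6.57%). Their absence concerns only this window.

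The libraries held between 20122172 and 39025042 counted reads, with a median of 31061375. MAFG mRNA was higher in each of the 3 MAFG libraries than in each of the 3 GFP libraries in all 3 lines. The log2 fold change was 1.04 in WM164 (standard error 0.09, adjusted p = 6.37e-08) and 0.64 in SKMel28 cells (standard error 0.10, adjusted p = 1.28e-04), both from the quasi-likelihood test of edgeR, adjusted by Benjamini-Hochberg over all genes tested. In A375 cells it was 0.80 (standard error 0.17), with an edgeR adjusted p of 0.0655 that missed the threshold of 0.05. The deposited TPM values of MAFG rose by more than the counts. Their means went from 2.89 to 24.5 in WM164, from 3.96 to 17.0 in SKMel28 and from 4.22 to 25.2 in A375 cells. The reason for this gap was not tested. The A375 libraries also varied more. Over all genes, the standard error of the log2 fold change had a median of 0.176 there, against 0.110 for WM164 and 0.119 for SKMel28, and the A375 MAFG libraries correlated least with each other (0.964 to 0.974). Of the 7 melanocyte lineage markers, MLANA, TYR and DCT had at most 1 count in any A375 library, PMEL at most 22 and TYRP1 at most 28. MITF was at 20.4 to 32.3 CPM in the A375 libraries. Of the 3 markers of dedifferentiated melanoma, AXL was at 545 to 682 CPM in A375 cells and at most 30.5 CPM in the other lines. FN1 went the other way, at no more than 24.1 CPM in A375 cells and at least 8424 CPM in the other lines, and NGFR was at 1.72 CPM in A375, 6.13 in WM164 and 11.8 in SKMel28 cells with GFP. CPM is the count relative to the total of its library after TMM scaling over the 18 libraries. SOX10, the last of the lineage markers, was at 6.93 to 11.5 CPM in the A375 GFP libraries and at 97.8 to 142 CPM in the A375 MAFG libraries. Of the markers of other cell types, KRT5, KRT14, PTPRC, PECAM1 and MYH11 were below 1 CPM in every library, with a highest value of 0.825.

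ZNF723 and ZNF99 were at background in WM164 and SKMel28 cells and expressed in A375 cells. ZNF723 had 0 counts in the 6 WM164 libraries, and 2 counts in 1 of the 6 SKMel28 libraries with 0 in the others. ZNF99 had 0 counts in every library of these lines, where 3 counts, the floor used here, would have been between 0.0927 and 0.148 CPM. In A375 cells with GFP, ZNF723 was at 8.90 ± 1.25 CPM (SD, n = 3) and ZNF99 at 1.61 ± 0.259 CPM. ZNF729 had the same distribution, with 0 counts in the WM164 libraries, at most 7 in the SKMel28 libraries and 68 to 93 in A375 cells with GFP. So 3 of the 10 genes were A375 genes in this panel, and their A375 MAFG libraries lay below every A375 GFP library. Over all genes tested in A375 cells, 12.3% had no overlap, and the set was chosen there, so nothing is read from this count. With GFP, ZNF730 was also low outside A375 cells (0.0645 CPM in WM164 and 0.184 in SKMel28, against 9.16), but its A375 libraries overlapped.

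The other genes were less restricted. ZNF91 gave the most reads of the 10 genes in every condition, at 16.4 ± 0.603 CPM in WM164, 57.3 ± 9.32 CPM in SKMel28 and 62.1 ± 9.90 CPM in A375 cells with GFP. ZNF675 followed at 8.26 ± 0.926, 22.4 ± 0.838 and 29.9 ± 1.79 CPM in the same order. Both together held 97.5% to 99.1% of the summed CPM of the 10 genes in WM164 libraries, 88.5% to 94.5% in SKMel28 libraries and 72.3% to 82.2% in A375 libraries. ZNF257 and ZNF730 were highest in A375 cells, at 12.2 ± 0.902 and 9.16 ± 2.12 CPM with GFP. ZNF208 went the other way, with 1.39 ± 0.374 CPM in SKMel28 cells with GFP and at most 5 counts in any A375 library. ZNF676 and ZNF728 were low throughout, with a highest mean of 0.386 CPM for ZNF676 in SKMel28 cells with MAFG and of 0.431 CPM for ZNF728 in A375 cells with MAFG. Most neighbours in the order of the 6 conditions overlapped. For ZNF91, the 3 highest conditions, SKMel28 MAFG, A375 GFP and SKMel28 GFP, could not be separated by their libraries from each other or from A375 MAFG, and only both WM164 conditions stood clearly below.

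**Figure D1:**
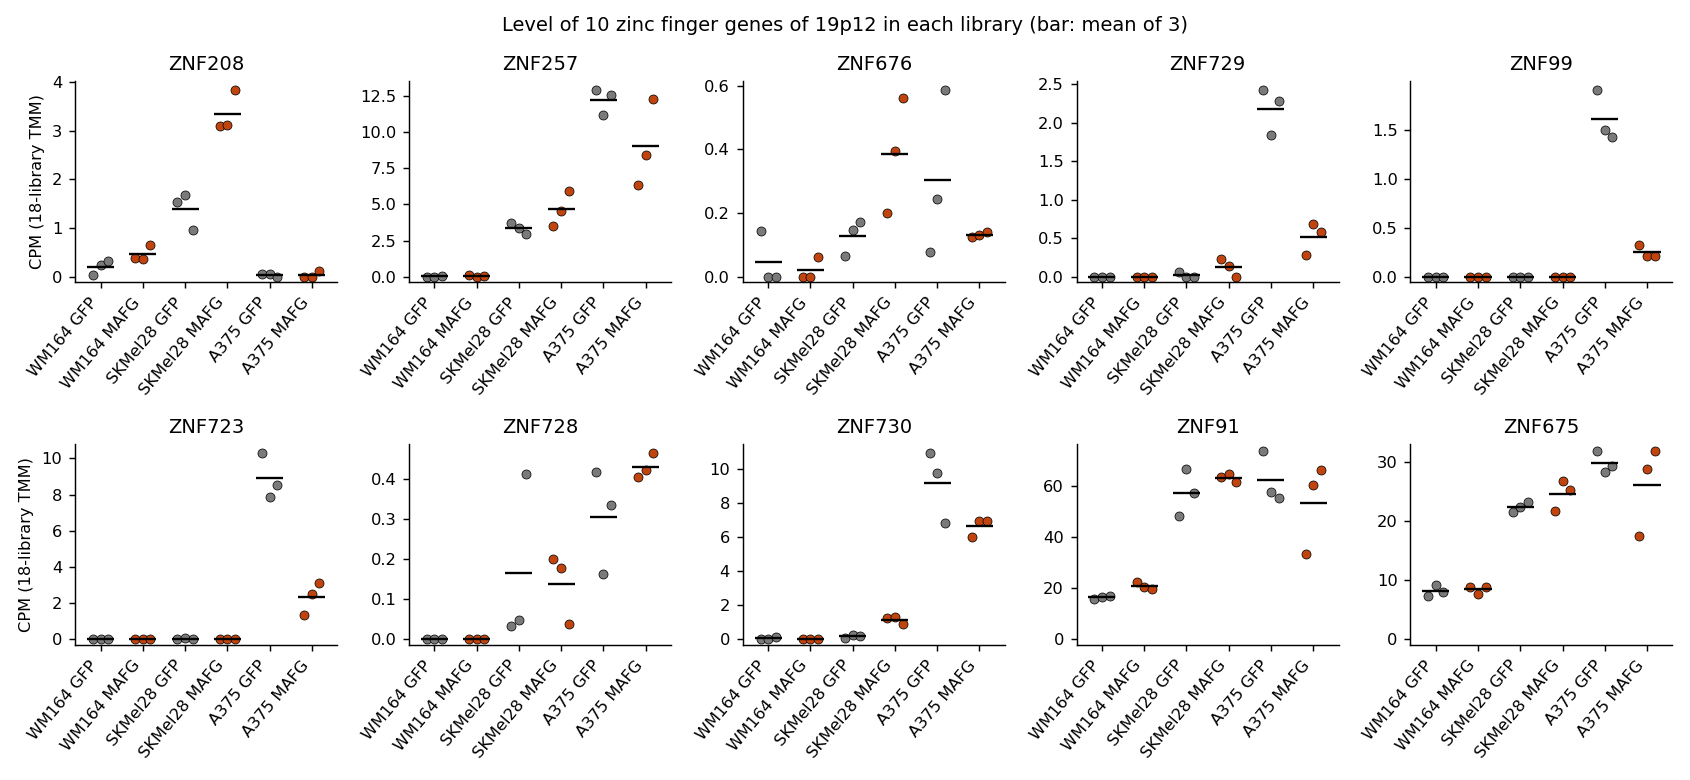
Level of each of the 10 genes, in CPM (TMM scaling over 18 libraries, linear axes of different range), with 1 point per library in grey for GFP and red for MAFG, and a bar at the mean of 3 libraries. ZNF729, ZNF99 and ZNF723 are near 0 outside A375 cells and lower with MAFG within them, while ZNF208 is highest in SKMel28 cells with MAFG at 3.35 CPM.

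Levels of different genes were compared only after division by the length of all exons, on a TPM scale computed from the counts. On it, ZNF91 was at 13.9 ± 3.55 and ZNF723 at 11.0 ± 2.52 in A375 cells with GFP, so that ZNF723, which has 1.86 kb of exons against 10.31 kb for ZNF91, was within the spread of ZNF91. ZNF675 was at 10.1 ± 1.50, ZNF730 at 6.53 ± 2.04 and ZNF257 at 5.39 ± 0.766 on this scale. ZNF99 was low, at 0.471 ± 0.122. The deposited TPM values in A375 cells with GFP were lower than these for most of the genes, also for ZNF730 (3.91) and ZNF257 (3.49), and higher for ZNF675 (11.4). ZNF723 had a deposited TPM of 4.24, ZNF99 of 0.16 and ZNF729 of 0.46 in A375 cells with GFP. ZNF91 had a deposited TPM of 12.7 ± 4.04 there. On this scale ZNF723, with at most 5.44, lay below every library of ZNF91, with at least 8.88. The log2 ratio of the deposited TPM to the count-based value was -1.37 for ZNF723, -1.56 for ZNF99 and -1.50 for ZNF729, against a median of -0.40 over 15668 genes, and 11.5%, 1.42% and 3.26% of those genes had a lower ratio. The fall with MAFG was also present in the deposited TPM, from 4.24 ± 1.04 to 1.05 ± 0.482 for ZNF723 and from 0.46 ± 0.0964 to 0.107 ± 0.0513 for ZNF729.

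Whether the genes differed between lines before MAFG was raised was tested between WM164 and SKMel28 cells with GFP, lines whose values did not choose the genes. Of the 7 genes above the floor in either group, 5 had an adjusted p of 0.05 or less in 1 edgeR model of all 18 libraries, all 5 lower in WM164. With only the 6 GFP libraries of the 2 lines, 4 genes passed. ZNF676, ZNF728 and ZNF730 were below the count filter there, so they were tested only through libraries of other conditions, A375 included. In this comparison, 56.8% of all 18767 genes were called in either direction. ZNF91 had 440, 502 and 426 counts in WM164 and 1442, 1355 and 1657 in SKMel28 cells with GFP, without overlap. The log2 difference was -1.80 (standard error 0.18, adjusted p = 3.5e-08). ZNF675 had 208, 279 and 205 counts in WM164 against 648, 455 and 674 in SKMel28 cells, also without overlap, and a log2 difference of -1.44 (standard error 0.17, edgeR adjusted p = 2.39e-07). ZNF208 was lower in WM164 by -2.82 on the log2 scale (standard error 0.71, edgeR adjusted p = 0.00202), with 1, 7 and 8 counts against 46, 34 and 28.

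ZNF257 was at the floor in WM164 cells, with 0, 0 and 2 counts, and had 112, 68 and 85 counts in SKMel28 cells, which was at least 30.8-fold higher when computed against 3 counts per library (edgeR adjusted p = 1.97e-09). The fifth call, ZNF728, rested on 1 library. It had 0 counts in WM164 cells and 1, 1 and 12 counts in SKMel28 cells, and without the library with 12 counts it did not pass (edgeR adjusted p = 0.106). ZNF730 did not pass (log2 difference -1.50, standard error 0.73, edgeR adjusted p = 0.0901), and neither did ZNF676 (-1.35, standard error 1.19, edgeR adjusted p = 0.356). ZNF723, ZNF99 and ZNF729 were at the floor in both groups and no difference could be given.

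In WM164 cells, MAFG overexpression went with a small rise of ZNF91, the retroelement repressor, while ZNF675 did not pass the test. Of the 10 genes, 3 passed the count filter in this line, ZNF91, ZNF675 and, through its MAFG libraries alone, ZNF208. ZNF91 was at 15.7, 16.6 and 16.8 CPM in the 3 GFP libraries and at 22.2, 20.4 and 19.9 CPM in the 3 MAFG libraries. All MAFG libraries were above all GFP libraries. The log2 fold change was 0.34 (standard error 0.09, edgeR adjusted p = 0.00622), and leaving out any 1 library kept it between 0.29 and 0.37. The call was lost in the model of all 18 libraries (0.34, edgeR adjusted p = 0.245) and on the scales log2(TPM + 1) and log2(TPM + 0.1) (limma adjusted p = 0.191 and 0.198). It was the 1 call of 3 tested genes, in a line where 16.2% of 15919 genes were called higher and 15.6% lower.

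ZNF208 also had no overlap in WM164 cells, with 1, 7 and 8 counts with GFP and 11, 10 and 21 with MAFG. It was tested only because its MAFG libraries were high enough for the count filter, so that a rise is not read from it. Its log2 fold change of 1.27 (standard error 0.65, 95% interval -0.01 to 2.55) did not pass (edgeR adjusted p = 0.157). ZNF675 had 208, 279 and 205 counts with GFP and 255, 210 and 289 with MAFG, which overlap. Its log2 fold change was 0.05, with a 95% interval from -0.21 to 0.30 (edgeR adjusted p = 0.827).

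In SKMel28 cells, ZNF208 rose with MAFG, and ZNF730 was higher in each MAFG library than in each GFP library. The other 3 of the 5 tested genes did not pass, and over all 15523 genes 14.6% were called higher, 15.3% lower and 1.76% higher by more than 2-fold. ZNF730 passed the count filter through its MAFG libraries alone, so that it was tested only because it was high there, and the count of 2 is not read against these shares. ZNF208 was at 1.53, 1.67 and 0.966 CPM in the GFP libraries and at 3.10, 3.12 and 3.83 CPM in the MAFG libraries. The groups were far apart, and the log2 fold change was 1.28 (standard error 0.28, edgeR adjusted p = 0.00237). In the model of all 18 libraries the value was 1.27 and did not pass (edgeR adjusted p = 0.182).

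ZNF730 had 3, 5 and 6 counts with GFP and 38, 37 and 24 with MAFG in SKMel28 cells. The lowest MAFG library was at 0.900 CPM against 0.246 CPM in the highest GFP library, and the log2 fold change was 2.67 (standard error 0.54). No p-value is given for ZNF730, since only its MAFG libraries brought it past the count filter. With MAFG it reached 1.16 ± 0.231 CPM, still below the 6.63 ± 0.531 CPM of A375 cells with MAFG. The long noncoding RNA AC074135.1 overlaps ZNF730 on its own strand, so that reads that fit both may have been left out. ZNF257 was at 3.73, 3.34 and 2.93 CPM with GFP and at 3.54, 4.55 and 5.93 CPM with MAFG. These libraries overlap, and a log2 fold change of 0.48 (standard error 0.22) did not pass (edgeR adjusted p = 0.114), but passed without MAFG library 1 (0.65, edgeR adjusted p = 0.0434).

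The 2 genes with most reads did not pass the test in SKMel28 cells. The log2 fold change of ZNF91 was 0.14 with a 95% interval from -0.03 to 0.32 (edgeR adjusted p = 0.255, and 0.0254 at a value of 0.26 without GFP library 2), and that of ZNF675 was 0.14 with an interval from -0.05 to 0.32 (edgeR adjusted p = 0.305). ZNF676 fell below the count filter but had no overlap, with 2, 3 and 5 counts with GFP and 6, 11 and 15 with MAFG. ZNF723, ZNF728 and ZNF729 had at most 12 counts in any library of this line.

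Since ZNF91 passed in WM164 and not in SKMel28 cells, and ZNF208 the reverse, the difference of both responses was tested. Differences of the responses were called for 13.7% of all 18767 genes. ZNF91, ZNF208 and ZNF675, the genes tested in both lines, had adjusted p-values of 0.702, 1 and 0.901 in the edgeR model of 18 libraries. From the fits of the single lines, the response of WM164 minus that of SKMel28 was 0.20 for ZNF91 (95% interval -0.05 to 0.45), -0.01 for ZNF208 (-1.40 to 1.38) and -0.09 for ZNF675 (-0.40 to 0.22). So a difference between the lines was not shown for these genes. For ZNF208 the interval was wide, and in WM164 cells the gene passed the count filter through its MAFG libraries alone. The 1 call among the 10 genes was ZNF730 (log2 difference -6.70, standard error 1.58). ZNF730 was taken up here only because its SKMel28 MAFG libraries were high enough for the count filter there. No p-value is thus given for it, and a difference between the lines is not read from it. It was below the count filter in WM164 cells, with 1, 0 and 4 counts with GFP and 0 in the MAFG libraries, and without the GFP library with 4 counts the number of calls was 0.

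**Figure D2:**
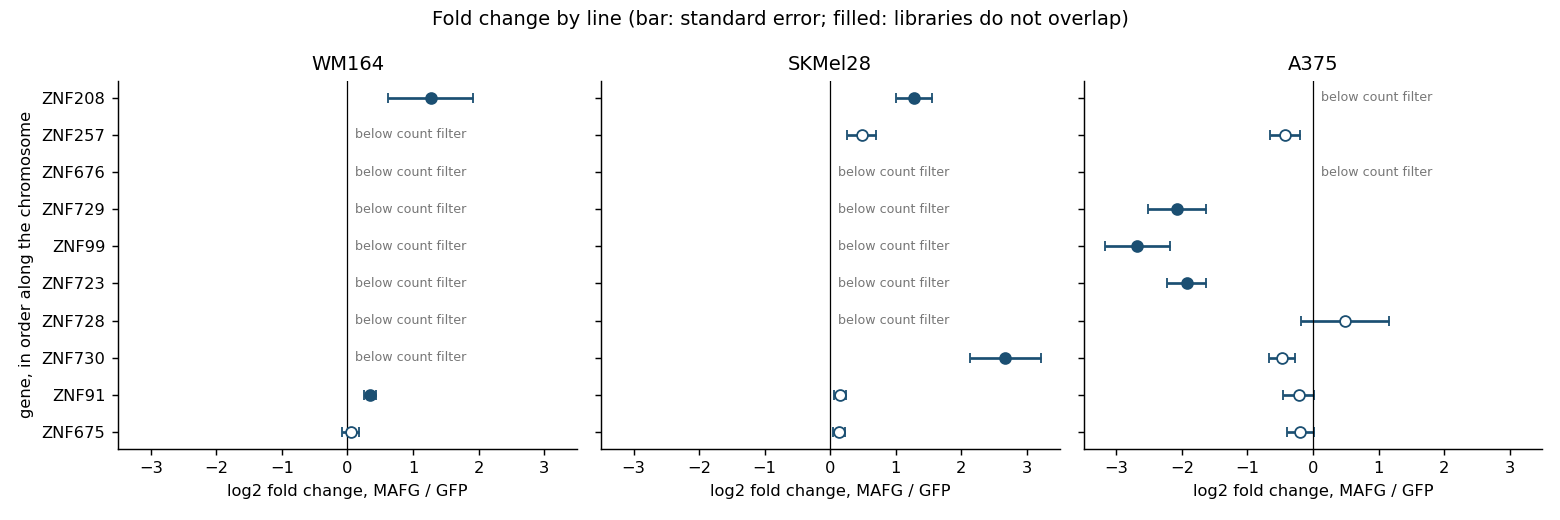
Log2 fold change of MAFG against GFP with its standard error, for the 10 genes in order along the chromosome and the 3 lines. Filled points mark genes without overlap between the libraries of both groups, and genes under the count filter are marked in words. ZNF208 is at 1.27 in WM164, where it passed the count filter through its MAFG libraries alone, and at 1.28 in SKMel28. The 3 lowest values, of ZNF729, ZNF99 and ZNF723, are all in A375.

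In A375 cells, 8 of the 10 genes passed the count filter. ZNF723, ZNF99 and ZNF729 were lower with MAFG without overlap, and the other 5 overlapped. Among all genes tested in A375 cells, 12.3% had no overlap, and the count is not read against this share, since the set was chosen there. ZNF723 had 395, 290 and 306 counts with GFP and 53, 95 and 134 with MAFG. As CPM, the GFP libraries were at 10.3, 7.88 and 8.53 and the MAFG libraries at 1.34, 2.52 and 3.12. The highest MAFG library was thus well below the lowest GFP library, and the log2 fold change was -1.93 (standard error 0.30). Bulk RNA cannot tell fewer cells with this RNA from less of it per cell.

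ZNF99 had 73, 55 and 51 counts with GFP and 13, 8 and 9 with MAFG, which gave a log2 fold change of -2.68 (standard error 0.49). ZNF729 had 93, 68 and 82 counts with GFP and 11, 26 and 25 with MAFG, which gave a log2 fold change of -2.07 (standard error 0.44). All MAFG libraries held reads of each of the 3 genes. Over all 15779 genes, 0.0634% were called lower, 0.019% lower by more than 2-fold and 0.78% higher at an adjusted p of 0.05 or less. ZNF723 and ZNF99 are among the genes called lower, and the set was chosen with this known, so nothing is read from these shares. Neither gene was among those called when GFP library 1, GFP library 3 or MAFG library 2 was left out. MAFG library 1 stood apart, with 65.6 CPM for the sum of the 10 genes against 108 and 122 in the other MAFG libraries and 117 to 144 in the GFP libraries. Without it, the log2 fold changes were -1.64 for ZNF723, -2.89 for ZNF99 and -1.76 for ZNF729. SOX10 also separated the A375 groups, with the values given above, and its part in these falls was not tested.

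The other 5 genes showed smaller differences. ZNF91 was at 73.4, 57.5 and 55.3 CPM with GFP and at 33.3, 60.0 and 66.1 CPM with MAFG, where MAFG library 1 was the low one. Its log2 fold change was -0.22 (standard error 0.24), and that of ZNF675 was -0.19 (standard error 0.21) with the same library lowest. Without MAFG library 1, both values turned slightly positive, to 0.04 for ZNF91 and 0.04 for ZNF675. ZNF730 had a log2 fold change of -0.47 (standard error 0.20) and ZNF257 of -0.43 (standard error 0.23), both with overlapping libraries. ZNF728 had 16, 6 and 12 counts with GFP and 16, 16 and 20 with MAFG, at a log2 fold change of 0.49 (standard error 0.67).

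The genes that were lower in A375 cells without overlap are neighbours. From ZNF729 to ZNF723, over 0.57 Mb (chr19:22286441-22858667), 7 genes could be tested, and all 7 were lower with MAFG without overlap. Apart from the 3 genes of the set these were ZNF98 (log2 fold change -0.74, standard error 0.19), ZNF492 (-0.82, standard error 0.13), the pseudogene ZNF849P (-1.42, standard error 0.28) and the long noncoding RNA AC011467.1 (-2.03, standard error 0.92), which overlaps ZNF98 on the same strand. ZNF492 was at 19.9 CPM with GFP and 11.3 CPM with MAFG, and ZNF98 at 11.2 and 6.72 CPM. The repeated windows of ZNF98 and ZNF492 given above mean that part of their reads was not counted. AC011467.1 was at 1.23 CPM with GFP and 0.292 CPM with MAFG. Low genes such as ZNF99, which needed its GFP libraries to pass the count filter, could be tested only because GFP was high. The count of 7 is thus partly set by the filter.

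Outside this stretch most differences were smaller. Before it, ZNF257 was the only gene tested (log2 fold change -0.43, standard error 0.23), so that side rests on this gene alone. Of the other 12 genes tested between ZNF208 and ZNF675, 10 had a negative log2 fold change, 3 had no overlap, and the median was -0.25. The exception in size was AC124856.1, a pseudogene inside ZNF730, at -2.13 (standard error 0.59) and 1.04 CPM with GFP. Over all genes tested in A375 cells, 12.3% had no overlap between MAFG and GFP, and over chromosome 19 11.0% of 1087 had none. The ends of the stretch were set after the values were seen, so no test was made of it. In WM164 and SKMel28 cells the genes of the set inside the stretch could not be tested, since their counts were too low.

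**Figure D3:**
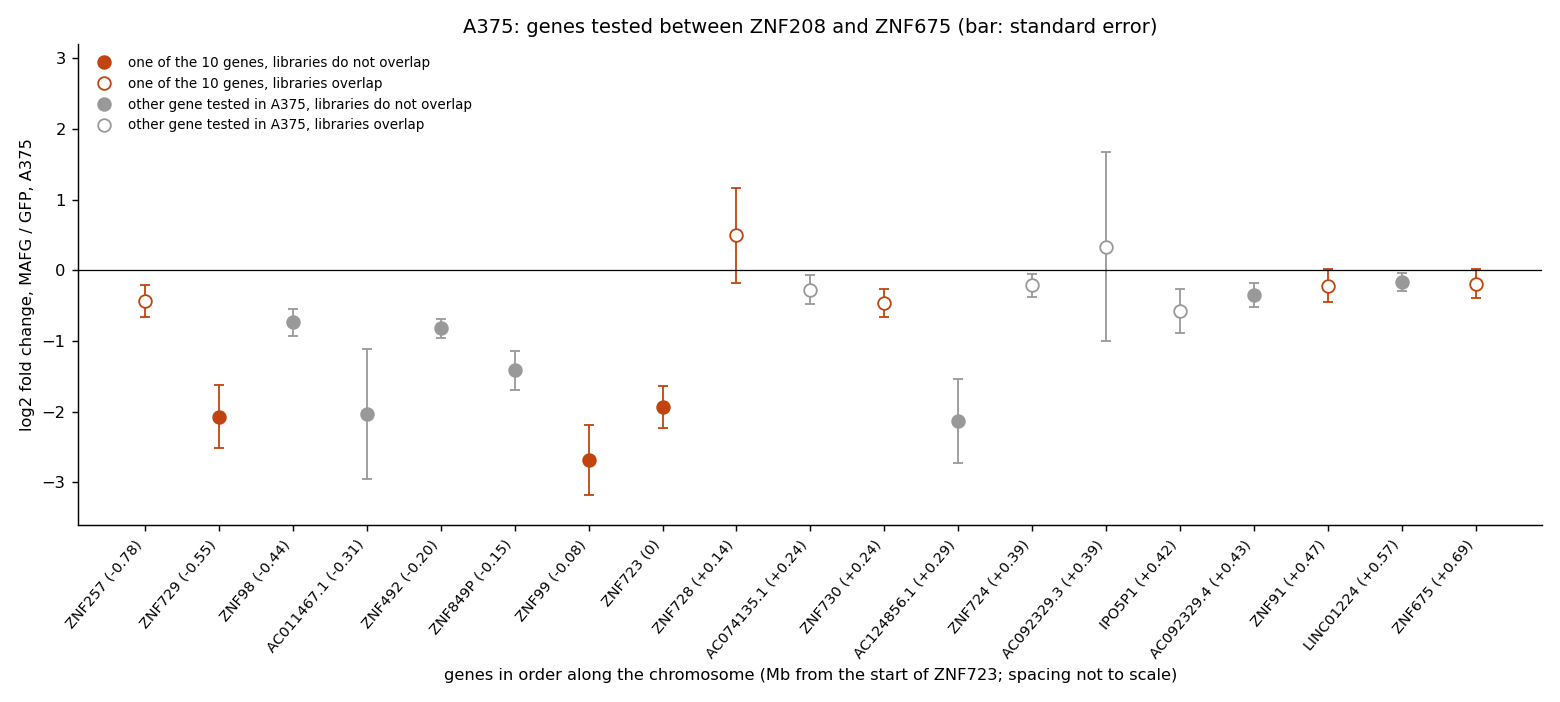
Log2 fold change of MAFG against GFP in A375 cells with its standard error, for the genes tested between ZNF208 and ZNF675 in order along the chromosome, with the distance of each gene start from that of ZNF723 in Mb. Members of the set are red and other genes grey, and filled points mark libraries without overlap. The 7 genes from ZNF729 to ZNF723 lie between -0.74 and -2.68. The genes outside this stretch, of which only ZNF257 lies before it, are closer to 0 apart from AC124856.1 at -2.13.

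Genes whose level over the 18 libraries was most like that of ZNF723 and ZNF99 were found by the Pearson correlation of log2 CPM over 18766 other genes. The libraries of a line share their origin, so these values mainly follow the step from the other lines to A375. For ZNF723, the first was its neighbour ZNF849P (r = 0.997), followed by AL050303.4 (0.989), ADGRF1 (0.989), an adhesion G protein-coupled receptor, AC016687.3 (0.988) and DSC3 (0.987), a desmosomal cadherin. For ZNF99, they were ADGRF1 (0.985), F2RL3 (0.973), a thrombin receptor, NETO1 (0.971), ZNF849P (0.967) and ZNF723 (0.966). In A375 cells, all of these had negative log2 fold changes with MAFG, from -0.63 for AC016687.3 to -1.93 for ZNF723, and the A375 MAFG libraries are among the 18.

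To see whether the 10 genes stood apart from their family, the remaining zinc finger genes of 19p12 were counted in the same fits. Of 27 listed genes, 26 were in the count table. In WM164 cells, 18 could be tested and edgeR called 0, with 2 higher and 0 lower at an unadjusted p under 0.05 and 0 calls with DESeq2. Their median log2 fold change was 0.17 against -0.0015 over all genes, and 15 of 18 were positive. In SKMel28 cells, 8 of 24 were higher, a share above the 14.6% of all genes, and 0 were lower by edgeR (0 at an unadjusted p under 0.05), with a median of 0.21 against -0.0080. Of the 3 with the smallest adjusted p, ZNF486 was at a log2 fold change of 0.89 (standard error 0.21, edgeR adjusted p = 0.00447). ZNF506 followed at 0.70 (standard error 0.13, edgeR adjusted p = 7.2e-04), and ZNF724, which lies between ZNF730 and ZNF91, at 0.61 (standard error 0.09, edgeR adjusted p = 1.04e-04). ZNF429, named after its value was seen, was at 1.32 (standard error 0.38). In A375 cells, ZNF492 was the 1 call of 26 genes (edgeR adjusted p = 0.0169), and 22 of 26 had a negative value, with a median of -0.12 against -0.00037 over all genes.

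**Figure D4:**
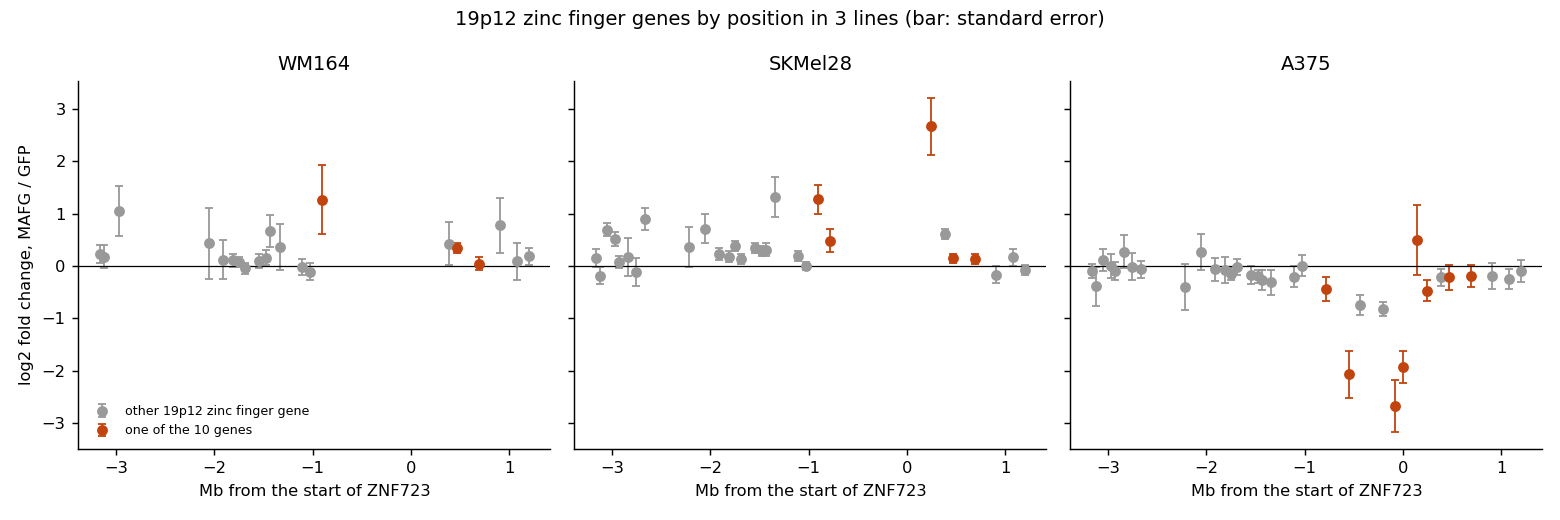
Log2 fold change of MAFG against GFP with its standard error for the zinc finger genes of 19p12 tested in each line, by distance from the start of ZNF723 in Mb. The 10 genes are red and the others grey. In A375 cells, the low values lie close to ZNF723, with ZNF99 at -2.68 and ZNF492 at -0.82, while in SKMel28 cells ZNF730 is the highest at 2.67.

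A zinc finger cluster on the other arm lies at 19q13.4. Of its tested genes, 8 of 10 had a positive log2 fold change in WM164 cells, 5 of 11 in SKMel28 cells and 2 of 17 in A375 cells, with medians of 0.14, -0.23 and -0.23. In SKMel28 cells, 3 of 11 tested genes were higher and 5 lower, where 14.6% of all genes were called higher and 15.3% lower. ZNF816 (log2 fold change 1.55, standard error 0.32, edgeR adjusted p = 0.00175), ZNF468 (1.23, standard error 0.23, edgeR adjusted p = 7.2e-04) and ZNF888 (1.14, standard error 0.36, edgeR adjusted p = 0.0232) rose. ZNF611 (-2.42, standard error 0.38, edgeR adjusted p = 1.43e-04), ZNF83 (-0.96, standard error 0.19, edgeR adjusted p = 0.0011) and ZNF160 (-0.41, standard error 0.09, edgeR adjusted p = 0.00181) fell. In WM164 cells, ZNF83 was the 1 call of 10 genes, and it rose there (1.20, standard error 0.38, edgeR adjusted p = 0.0231). Over all genes of that line, 16.2% were called higher and 15.6% lower. In A375 cells, edgeR called 0 of 17 (0 higher and 2 lower at an unadjusted p under 0.05, 0 with DESeq2).

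KRAB zinc finger proteins work through corepressor and heterochromatin proteins, and the mRNAs of 26 of these were tested. In SKMel28 cells, 12 of 26 were higher and 3 lower, where 14.6% of all genes were called higher and 15.3% lower. CBX5, a heterochromatin protein 1, rose from 37.6 ± 1.67 to 75.3 ± 1.17 CPM (log2 fold change 1.0, edgeR adjusted p = 1.41e-08), and ATRX, a chromatin remodeller, rose by 0.66 and RESF1, a cofactor of SETDB1, by 0.60 on the log2 scale. TRIM28, the KRAB corepressor, fell from 135 ± 2.34 to 99.8 ± 6.18 CPM (log2 fold change -0.44, edgeR adjusted p = 4.36e-05). The DNA methyltransferase DNMT3A (-0.43) and UHRF1 (-0.17), which guides DNA methylation, also fell. In WM164 cells, 5 of 26 were higher, among them RESF1 (0.48), MORC2 (0.36) and CBX5 (0.33), and 3 were lower, among them DNMT3A (-0.28) and HDAC1 (-0.25). These counts stand beside 16.2% of all genes called higher and 15.6% lower in WM164 cells, so they are not read as particular to the 26 genes. In A375 cells, edgeR called 0 of 26 (0 higher and 0 lower at an unadjusted p under 0.05, 0 with DESeq2), and the median log2 fold change was -0.02.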

How the data were processed

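Counts for 58870 genes were used from 18 libraries. The submitters' processing notes and the methods name cutadapt 1.8.1, STAR 2.7.7a and GRCh38, and the authors used featureCounts on reads with 1 place of alignment. The deposited counts are whole numbers without normalization. The deposited TPM values, for which the notes name RSEM 1.3.0 among the tools, are scaled to the same sum in each library and rounded to 2 decimals. The methods describe strand-specific libraries and the labels a kit without strand, and strand use in counting is not given in the sources used here.

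MAFG was compared with GFP on the 6 libraries of each line with edgeR 4.0.16 (R 4.3.3, TMM, filterByExpr, quasi-likelihood test), and p-values were adjusted by Benjamini-Hochberg over every gene tested. Lines were compared in 1 model of 18 libraries. The standard error is the absolute log2 fold change divided by the square root of F. CPM values used TMM over 18 libraries. A group was at the floor where none of its libraries had more than 3 counts of the gene. The threshold for calls was an adjusted p of 0.05, together with a 2-fold change where stated. Alternatives were DESeq2 1.42.0, its size factors in edgeR, other count filters, a replicate block, 1 model of all 18 libraries, limma 3.58.1 on log2(TPM + 1) and log2(TPM + 0.1), deposited TPM levels, and each library left out. The tests were tried on simulated data, with large changes placed only in genes with more reads. Genes with few reads and small changes such as that of ZNF91 were not covered by it. Figures were drawn with matplotlib 3.10.9. All sample columns were assigned, and replicates of a condition differed by more than sampling noise.

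The genes, lists and motifs were chosen with earlier results of these data known. Named were the 10 genes, MAFG, up to 3 non-overlapping calls per list, line and direction, and the 5 genes most correlated with ZNF723 and ZNF99. Genes of the A375 stretch were named by position after their values were seen. Proteins were not analysed here.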

Additional observations from a re-analysis of the deposited data

Results flagged for a closer look

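ZNF730 was taken into the comparison of responses only through its high SKMel28 MAFG libraries, so its value is given without a p-value. The difference of its responses to MAFG between WM164 and SKMel28 cells was -6.70 on the log2 scale (WM164 minus SKMel28, model of 18 libraries). The counts behind it were 1, 0 and 4 with GFP and 0, 0 and 0 with MAFG in WM164 cells, and 3, 5 and 6 with GFP and 38, 37 and 24 with MAFG in SKMel28 cells. The size of the difference depends on how 0 counts enter the fit.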

How the results depend on the processing

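The fits rest on 3 libraries per condition, and few reads limit ZNF208, ZNF730, ZNF728 and ZNF99. Among log2 fold changes of the 10 genes, 35 of 39 alternatives in WM164 and 60 of 65 in SKMel28 cells kept their direction and side of the threshold. In A375 cells, where no p-value was used, 102 of 104 moved by less than their spread. This looser rule let a change of sign pass, as for ZNF91 and ZNF675 without MAFG library 1. The A375 share can thus not be set beside those of the other lines. The number of genes changed in WM164 cells was 0 in place of 1 in the model of all 18 libraries and on both TPM scales. In SKMel28 cells, it was 1 in place of 2 with a minimum of 10 counts per library and in the model of 18 libraries, and 0 on both TPM scales, where ZNF208 and ZNF730 were under the TPM minimum. In A375 cells, where the set was chosen and the count is only a description, it was 1 in place of 2 with at least 10 counts, with the replicate block and with 18 libraries, and 0 on both TPM scales, and leaving out 1 library gave 0 to 2. It was 0 without GFP library 1, GFP library 3 or MAFG library 2, and 1 without GFP library 2 or MAFG library 3. Between WM164 and SKMel28 cells with GFP, 2 genes in place of 5 differed with at least 10 counts, 3 on both TPM scales and 4 with only the 6 GFP libraries of the 2 lines. The number of different responses was 0 in place of 1 with at least 10 counts and on log2(TPM + 1), and 0 to 1 with a library left out. MAFG in A375 cells passed with DESeq2 (0.80), without a count filter (0.80), with 18 libraries (0.81) and on log2(TPM + 1) (2.33) and log2(TPM + 0.1) (2.55), and it ranged from 0.69 to 0.97 with a library left out.

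For other 19p12 genes, WM164 cells had 1 call with 18 libraries in place of 0. SKMel28 cells had 5 with 18 libraries, 1 on log2(TPM + 1) and 2 on log2(TPM + 0.1) in place of 8. A375 cells had 2 with DESeq2 and without a filter, and 0 with the replicate block, 18 libraries and both TPM scales in place of 1, and 0 to 1 with a library left out. For 19q13.4 genes, WM164 cells had 2 without a filter, with at least 10 counts, with the replicate block and with 18 libraries, and 0 on both TPM scales in place of 1, and 0 to 2 with a library left out. SKMel28 cells had 3 on both TPM scales in place of 8, and 5 to 9 with a library left out. Corepressor genes had 2 calls with 18 libraries and 3 on both TPM scales in place of 8 in WM164 cells, and 9 with 18 libraries and 8 on both TPM scales in place of 15 in SKMel28 cells. They had 0 to 1 in A375 cells with a library left out. ZNF675 turned to -0.026 in WM164 cells without GFP library 1, at a range up to 0.13 with a library left out, and ZNF91 to -0.13 in SKMel28 cells on both TPM scales. The response difference of ZNF208 turned to 0.0041 with DESeq2 and 0.082 with the replicate block, and ranged from -0.49 to 0.49 with a library left out. That of ZNF675 turned to 0.14 and 0.20 on the TPM scales and ranged from -0.17 to 0.0031. The causes were not tested. Libraries with the same number in MAFG and GFP cells did not deviate together (correlations from -0.047 to 0.030), so the numbers were not taken as pairs, and the block changed no other count of calls by more than 1.5 times. Of 33 levels, 18 differed between the deposited TPM and the counts per length by more than 1 SD.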
